A study of Homo sapiens with 3 samples.

Results

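The BEX and NAP1L genes form a pair of small families that are best known from the nervous system. BEX (brain-expressed X-linked) proteins are short, largely disordered adaptor proteins encoded side by side on the long arm of the X chromosome. BEX1 (shown in rat) and BEX3 bind the p75 neurotrophin receptor, a receptor that can signal for survival or for cell death, and BEX3 is also known as NADE, the p75-associated cell death executor. NAP1L proteins are relatives of nucleosome assembly protein 1, acidic histone chaperones that carry histones H2A and H2B to and from DNA. NAP1L1 and NAP1L4 are made in most tissues, whereas NAP1L2, NAP1L3 and NAP1L5 are expressed mainly in brain.

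The genes were followed in the human melanoma line SK-Mel-28 on 3 U133 Plus 2.0 arrays (Affymetrix, 1 colour), 1 for each RNA sample. On 2 of them was RNA of cells that stably carry a vector for a hairpin siRNA against melanotransferrin (MTf, gene symbol MELTF), labelled MTf/B1 and MTf/B2 and called siRNA array 1 and siRNA array 2 here. On the third was RNA of cells with a scrambled hairpin in the same vector, the neomycin-selectable pSilencer 3.1-H1 neo, so that all 3 carry the vector. The labels do not say whether B1 and B2 are clones, pools or separate cultures, so every p-value here reflects array-to-array spread that may be purely technical, and the scrambled cells have 1 array and no replicate.

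Every probe set was taken whose platform annotation names 1 of the 10 BEX and NAP1L genes and no other gene, which gave 21 of 54613 probe sets, for 10 of 19777 genes with a probe set of their own. Each BEX gene and NAP1L2 and NAP1L3 had 1 probe set, NAP1L5 had 2, NAP1L4 had 5 and NAP1L1 had 7. Of the 21, 18 passed a filter that kept the brighter part of all probe sets, split at the median of their mean log2 values, and all 10 genes kept at least 1. The 3 that did not pass belong to NAP1L4 and read below 97.2, the highest signal of the bacterial control probe sets, on all arrays. The families were chosen by measured values of the siRNA arrays against the scrambled array, in which BEX1 and NAP1L2 stood among the largest decreases. Their differences in that contrast are therefore given as a description, with no p-value.

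The deposited signals share 1 trimmed mean, and the arrays' median signals were 174.3 and 199.5 on siRNA arrays 1 and 2 and 160.6 on the scrambled array. MELTF was measured by 4 probe sets that did not move together: the brightest read 18968 and 18974 on the siRNA arrays against 32608 on the scrambled array, and the second brightest 10567 and 11199 against 8284. None of the 4 passed limma's test over all probe sets (adjusted p of the brightest 0.0699). All 8 melanocyte markers with a probe set of their own passed the filter, MLANA, PMEL and SOX10 among them, but the list did not move as one. TYRP1, a melanosomal enzyme gene, fell to 5022 and 12370 on the siRNA arrays, against 53204 on the scrambled array (log2 difference -2.75 ± 0.45, SE; limma adjusted p = 0.0374), a call lost with quantile normalization (0.0537), with the filter at the 75th percentile (0.0702), without the filter (0.164) and without the trend (0.161). TYR, the tyrosinase gene, read 35193 and 37555 against 19988 (adjusted p = 0.0529), and MIA read 17136 and 20809 against 13504 (adjusted p = 0.237). Of 5 epithelial markers 0 passed the filter and 4 read below the bacterial control level on every array. Leukocyte markers past the filter were LCP1 and CD79A, while PTPRC, the pan-leukocyte marker, did not pass. Of 4 endothelial markers 1 passed, PECAM1, with 284.8 and 459.5 on the siRNA arrays against 228.2 on the scrambled array (adjusted p = 0.487). Of 6 fibroblast markers, LUM, a proteoglycan gene, rose to 4850 and 4841 on the siRNA arrays, against 598.6 on the scrambled array (limma adjusted p = 0.00719; lost without the filter, 0.0584, and without the trend, 0.120). A dimmer LUM probe set, which did not pass the filter, read 171.2 and 138.9 against 139.8. The summed signal of the other 5 fibroblast markers was 815.8 and 1042 on the siRNA arrays against 1158 on the scrambled array. COL1A1, a collagen gene, read 487.9 and 565.1 against 671.9 (adjusted p = 0.609). The part of these markers in the results for BEX and NAP1L genes was not tested.

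BEX1 was far lower on both siRNA arrays than on the scrambled array. Its probe set read 895.4 and 2921 on the siRNA arrays, against 23694 on the scrambled array. These are 3.78% and 12.3% of the scrambled signal, or 26.5-fold and 8.11-fold lower, with all 3 signals well above the bacterial controls. On the log2(signal + pseudocount) scale used for all differences here, with a pseudocount of 47.4, BEX1 differed by -3.83 ± 0.57 (SE of the limma fit, 2 siRNA arrays against 1). The siRNA arrays themselves differed by -1.65 on that scale (array 1 minus array 2). In RNA from a whole culture, fewer cells that express a gene and less RNA in each cell cannot be told apart.

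**Figure D1:**
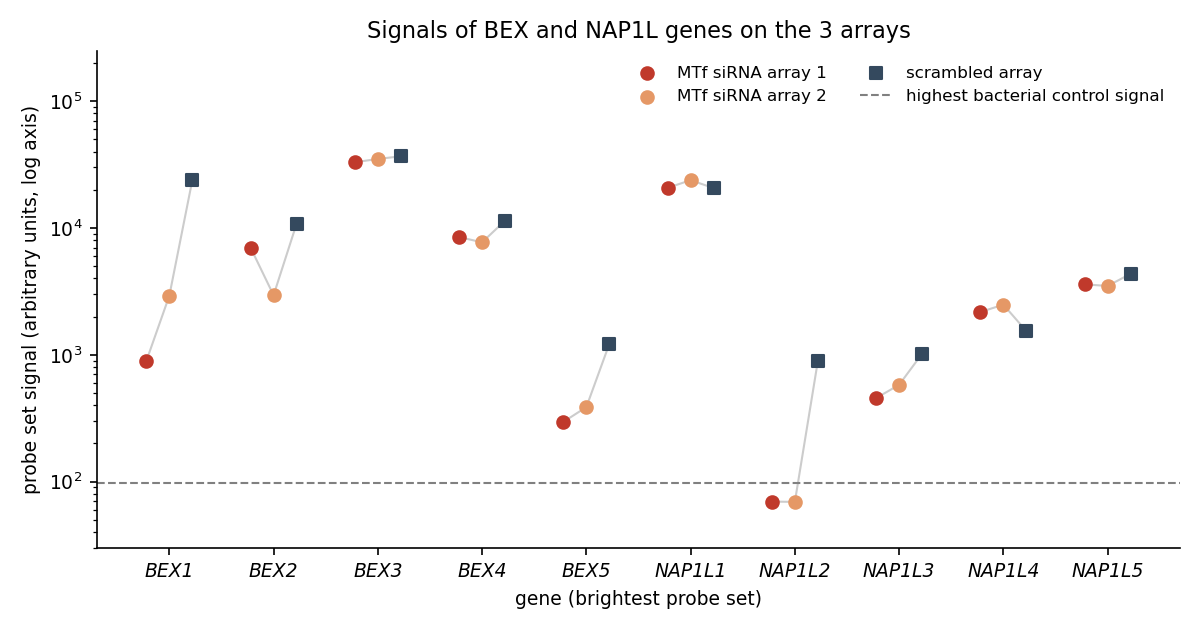
Signals of the brightest probe set of each BEX and NAP1L gene (log axis, arbitrary units) on siRNA array 1 (red), siRNA array 2 (orange) and the scrambled array (dark squares), with the highest bacterial control signal, 97.2, as a dashed line. BEX1 and NAP1L2 sit far below their scrambled signals, and levels of different probe sets are not comparable with each other.

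BEX2, a close relative of BEX1 that was described as a regulator of apoptosis in breast cancer cells, also read lower on both siRNA arrays. It had 6976 and 2949 on siRNA arrays 1 and 2, against 10757 on the scrambled array. That is 64.9% of the scrambled signal on array 1 and 27.4% on array 2 (log2 difference -1.24 ± 0.44, SE). The order of the siRNA arrays was thus the opposite of that for BEX1, with a difference of 1.23 (array 1 minus array 2). The names of this pair cross: the RefSeq gene table lists BEX2 as a synonym of BEX1 and BEX1 as a synonym of BEX2. The names here follow the Entrez identifiers of the platform annotation.

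BEX5, the least studied member of the family, lay between these on the mean and on siRNA array 1. On siRNA array 2 BEX5 did not, at 31.8% of the scrambled signal against 27.4% for BEX2. The BEX5 signals were 295.7 and 386.3 on the siRNA arrays, against 1215 on the scrambled array (log2 difference -1.71 ± 0.33, SE). It was 4.11-fold and 3.14-fold lower, and both siRNA values lay close together.

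The other BEX genes differed little. BEX4, which associates with microtubules, read 8478 and 7707 on the siRNA arrays against 11425 on the scrambled array, or 74.2% and 67.5% (log2 difference -0.50 ± 0.20, SE). BEX3, the p75-associated gene, read 32997 and 35045 on the siRNA arrays against 36758 on the scrambled array (log2 difference -0.11 ± 0.17, SE). BEX3 was thus at 89.8% and 95.3% of its scrambled signal on the arrays where the BEX1 probe set was at 3.78% and 12.3%. The probe sets of BEX3 and BEX4 are of the _s_at type, whose probes can match more than 1 transcript, and whether probes of 1 BEX gene also bind RNA of another was not tested here. This holds for every comparison between BEX genes.

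The promoters of these genes are shown because some of the genes have near-copies of each other's start regions. The windows are from RefSeq on GRCh38.p14, 250 bases before to 50 bases after an annotated start, 5′ to 3′ on the gene's strand, with capitals for the longest run of bases that both members of a pair share. BEX1 (chrX:103064122-103064421, minus strand) pairs with BEX3 (chrX:103376288-103376587, plus strand, 1 of 3 annotated starts), and BEX2 (chrX:103310941-103311240, minus strand) with BEX4 (chrX:103214858-103215157, plus strand, 1 of 2 starts).
BEX1: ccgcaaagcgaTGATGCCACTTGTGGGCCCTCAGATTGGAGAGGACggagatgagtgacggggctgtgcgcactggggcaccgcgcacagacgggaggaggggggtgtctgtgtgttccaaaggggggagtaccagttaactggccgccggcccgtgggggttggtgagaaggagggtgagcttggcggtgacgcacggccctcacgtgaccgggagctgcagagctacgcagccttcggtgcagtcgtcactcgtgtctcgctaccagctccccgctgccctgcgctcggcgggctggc
BEX3: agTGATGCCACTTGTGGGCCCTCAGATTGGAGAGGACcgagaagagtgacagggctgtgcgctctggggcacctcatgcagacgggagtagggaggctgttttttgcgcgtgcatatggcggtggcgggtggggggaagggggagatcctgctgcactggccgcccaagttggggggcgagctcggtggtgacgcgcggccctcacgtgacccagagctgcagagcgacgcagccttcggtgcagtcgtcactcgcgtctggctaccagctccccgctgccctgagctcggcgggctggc
BEX2: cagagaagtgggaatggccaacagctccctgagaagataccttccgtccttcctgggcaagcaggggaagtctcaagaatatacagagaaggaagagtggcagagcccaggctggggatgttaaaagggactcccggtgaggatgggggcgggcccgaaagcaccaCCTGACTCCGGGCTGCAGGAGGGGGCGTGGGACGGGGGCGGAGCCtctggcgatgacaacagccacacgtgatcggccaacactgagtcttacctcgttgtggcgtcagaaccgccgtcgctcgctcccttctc
BEX4: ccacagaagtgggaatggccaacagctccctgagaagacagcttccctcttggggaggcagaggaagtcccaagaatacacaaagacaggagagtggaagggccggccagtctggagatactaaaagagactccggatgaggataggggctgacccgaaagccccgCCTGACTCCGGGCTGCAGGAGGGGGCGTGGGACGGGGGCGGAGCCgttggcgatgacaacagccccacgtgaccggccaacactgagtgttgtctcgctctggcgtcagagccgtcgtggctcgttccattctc

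The BEX1 and BEX3 windows were 78.7% identical over a local alignment of 301 columns, with a shared run of 35 bases. The BEX2 and BEX4 windows were 84.5% identical over 304 columns, with a shared run of 45 bases. Of 35116 promoter windows in the table, 3 held the run of the first pair and 3 that of the second, in both cases windows of the named pair alone. Among all other pairs of the 10 genes the longest shared run was 12 bases. In the first pair the log2 differences were -3.83 for BEX1 and -0.11 for BEX3, and in the second -1.24 for BEX2 and -0.50 for BEX4. The BEX2 and BEX4 differences were -0.62 and -0.43 on siRNA array 1, and -1.85 and -0.57 on siRNA array 2. Whether the windows relate to these differences was not tested.

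Counts of the CG dinucleotide were set beside the differences. The BEX1 window had 25 and the NAP1L2 window 7, against a median of 14 over all windows. Both genes read far lower on the siRNA arrays. In the window with the most CG, NAP1L4 had 43, BEX3 32, NAP1L1 30 and NAP1L3 21. By the same measure NAP1L5 had 18, BEX2 and BEX4 17 each, and BEX5 14. Whether CG counts go with the differences was not tested. The GC box GGGCGG, searched on both strands with no other motif overlapping the search, was in 11 of the 17 member windows and in 45.0% of all windows. It was in the printed windows of BEX2, BEX3 and BEX4 and not in that of BEX1, nor in the 1 window of NAP1L2. The window of NAP1L5 (log2 difference -0.29) also lacked it, and a window of BEX5 (-1.71) held it. BEX3, BEX5 and NAP1L4 each had a further window without it. These are descriptions of letters in fixed windows.

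NAP1L2, an X-linked gene known in mouse for a role in neural progenitor differentiation and histone acetylation, was measured above background on the scrambled array alone. It read 69.5 and 69.1 on the siRNA arrays, against 884.9 on the scrambled array. As neither siRNA signal reaches 97.2, its difference is a bound: with both set to that bacterial control level, NAP1L2 was at least 9.10-fold lower. The difference between the siRNA arrays has no measurable value for this gene, and it cannot be ranked against BEX1.

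NAP1L3, an intronless gene of the same chromosome, differed less. It had 455.6 and 579 on the siRNA arrays, against 1017 on the scrambled array (log2 difference -0.92 ± 0.31, SE). It was 2.23-fold lower on array 1 and 1.76-fold lower on array 2.

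Of the NAP1L genes of other chromosomes, NAP1L5 and NAP1L1 lay near their scrambled signals. NAP1L5, an imprinted gene on chromosome 4, read 3595 and 3488 on the siRNA arrays against 4347 on the scrambled array in its brighter probe set (log2 difference -0.29 ± 0.22, SE), and its dimmer one differed by -0.19. NAP1L1, the founding member of the family on chromosome 12, read 20736 and 23819 on the siRNA arrays against 20667 on the scrambled array in its brightest probe set (log2 difference 0.10 ± 0.18, SE). The 7 NAP1L1 probe sets differed by 0.10 to 0.55, and with arrays centred on their medians by -0.068 to 0.38, with 4 above 0 and 3 below.

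NAP1L4, a ubiquitous chaperone gene on chromosome 11, was the 1 gene of the 10 with a higher signal on the siRNA arrays as deposited, with arrays centred and with quantile normalization. Its brightest probe set read 2174 and 2483 on the siRNA arrays against 1539 on the scrambled array (log2 difference 0.58 ± 0.25, SE). A second read 1813 and 2288 against 1723 (log2 difference 0.24 ± 0.27, SE), which is within its error. The 3 dim NAP1L4 probe sets read 12.3 to 89.0 on the siRNA arrays and 14.0 to 94.0 on the scrambled array and carry no measurable difference.

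**Figure D2:**
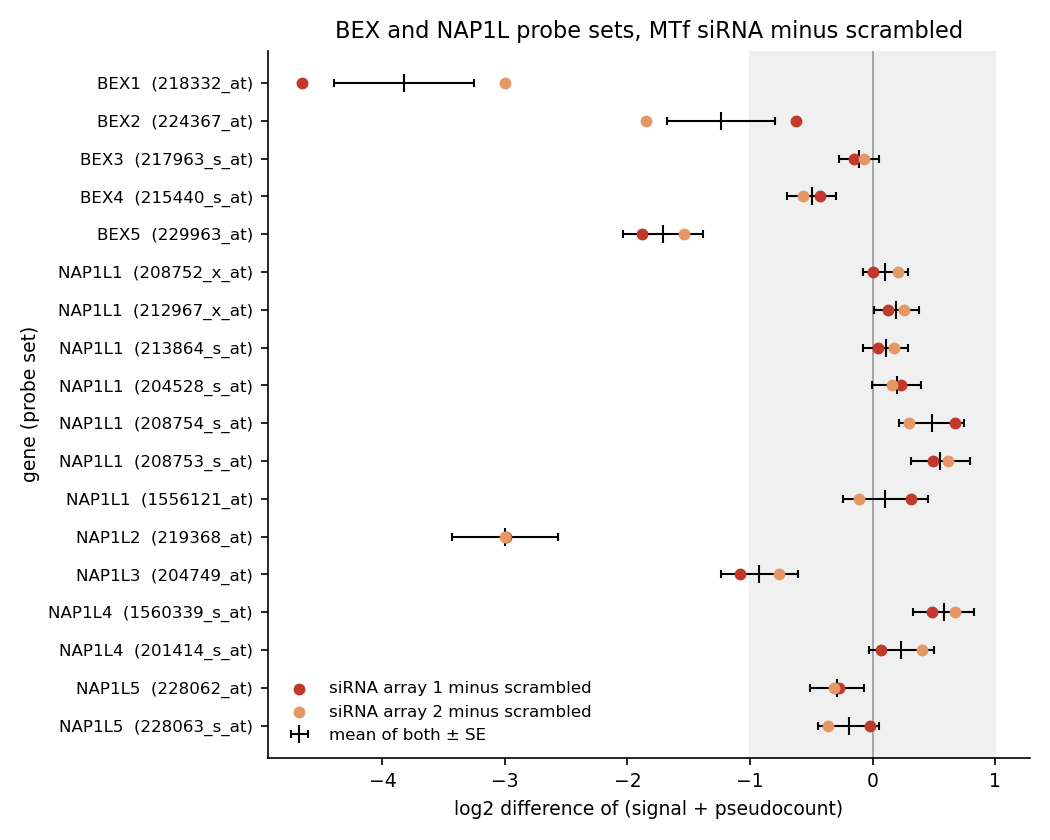
Log2 differences from the scrambled array for the 18 BEX and NAP1L probe sets past the filter, on siRNA array 1 (red) and siRNA array 2 (orange), with the mean of both and its SE from the limma fit (black). The grey band spans 2-fold in either direction; BEX1, BEX5 and NAP1L2 lie outside it on both arrays, and both dots of NAP1L2 coincide at -3.00, a value that depends on the pseudocount.

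Counted by gene with its brightest probe set, 3 of the 10 members (BEX1, BEX5 and NAP1L2) were at least 2-fold lower on both siRNA arrays, and 0 were at least 2-fold higher. Over all 12386 genes past the filter, 1.94% were at least 2-fold lower on both arrays and 4.19% at least 2-fold higher. Both differences of a gene share the scrambled array, and the contrast chose the families, so nothing is read from that comparison. NAP1L3 (log2 differences -1.08 and -0.77 on siRNA arrays 1 and 2) and BEX2 (-0.62 and -1.85) passed the 2-fold limit on 1 array only. BEX5 (-1.88 and -1.54) was past it on both. The median over the 10 members was -0.71, -1.24 for the 5 BEX genes and -0.29 for the 5 NAP1L genes, against 0.097 over all genes. Of the 10 members 8 were below 0, or 9 with arrays centred, a step that lowers every difference by 0.17.

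The siRNA arrays disagreed on 2 of the 10 members by at least 2-fold, BEX1 and BEX2, in opposite directions. Over all genes, 3.62% were at least 2-fold apart between siRNA array 1 and siRNA array 2. The others, leaving out NAP1L2, were apart by at most 0.34 on the log2 scale in their brightest probe set. With 1 array each, this has no test.

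The BEX genes were next set among their neighbours on the X chromosome. BEX5, BEX1, BEX4, BEX2 and BEX3 lie in this order, with genes of the ARMCX and GPRASP and the TCEAL families between them. Within the cluster, from BEX5 to BEX3, the 4 other measured genes (ARMCX5, GPRASP1, TCEAL8 and TCEAL9) had a median log2 difference of -0.21 and a range of -0.59 to -0.022 in their brightest probe sets. A dimmer ARMCX5 probe set past the filter lay outside that range, at -0.97 (651.2 and 530 on the siRNA arrays against 1192.6). TCEAL9, which lies between BEX2 and BEX3, read 15817 and 16040 on the siRNA arrays against 16179 on the scrambled array. Of the 20 measured genes on each side, 39 are no members, with a median of 0.055 (-0.11 with arrays centred), 17 below 0 and 22 above.

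**Figure D3:**
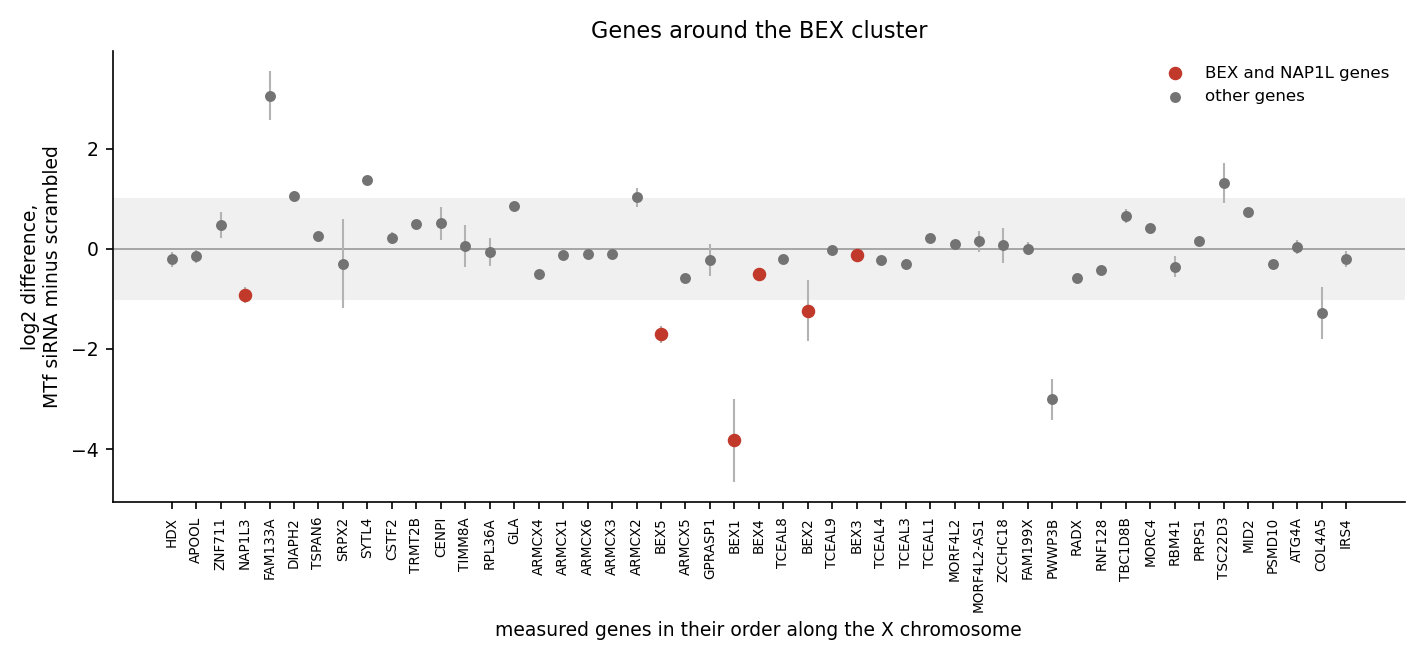
Log2 difference of each measured gene (mean of both siRNA arrays minus the scrambled array; vertical lines join the values of the 2 siRNA arrays) in chromosomal order from 20 genes before BEX5 to 20 genes after BEX3. Of 43 neighbours 36 lie within the grey 2-fold band, 2 lie below it (PWWP3B and COL4A5) and 5 above it (FAM133A, SYTL4, TSC22D3, DIAPH2 and ARMCX2); BEX1, BEX5 and BEX2 lie below it, with COL4A5 lower than BEX2.

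Among those 39 neighbours limma called 1 lower and 1 higher, where 1.14% of all genes were called lower and 1.50% higher. PWWP3B, which encodes a PWWP-domain protein, fell to 2160 and 1217 on the siRNA arrays, against 13402 on the scrambled array (log2 difference -3.01 ± 0.34, SE; limma adjusted p = 0.0184). FAM133A, whose annotated start lies 103 bases from that of NAP1L3 with no gene between them, rose to 1092 and 2205 on the siRNA arrays, against 144.7 on the scrambled array (log2 difference 3.06 ± 0.42, SE; limma adjusted p = 0.0263). A second FAM133A probe set read 1142 and 1752 against 123.2. NAP1L3 and FAM133A thus differed in opposite directions. Both calls are lost without the filter (adjusted p = 0.111 for PWWP3B and 0.130 for FAM133A) and without the trend (adjusted p = 0.125 and 0.126), and that of PWWP3B also with the filter at the 75th percentile (adjusted p = 0.0559), which FAM133A did not pass.

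Further neighbours were at least 2-fold higher on both arrays without passing limma's test, the synaptotagmin-like gene SYTL4 (285.2 and 310.0 on the siRNA arrays against 84.5, adjusted p = 0.131) and, near NAP1L3, the nucleosome-binding gene HMGN5 (818.7 and 713.9 against 299.1, adjusted p = 0.0899). The scrambled signal of SYTL4 lies below the bacterial control level of 97.2, so the size of its rise is a bound. Its other probe sets did not pass the filter. Of the 10 genes on each side of NAP1L2, 0 were at least 2-fold lower or higher on both arrays and 0 were called by limma, with a median of 0.10. Across the X chromosome, 4 of 399 measured genes other than the members were at least 2-fold lower on both arrays. These were IL1RAPL1, PWWP3B, CUL4B and MAGEA1, and over all genes 1.94% were at least 2-fold lower on both.

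Relatives of the BEX genes were measured on the same arrays. The TCEAL genes lie in the BEX region of the X chromosome and encode related proteins, and 5 of 9 passed the filter. None was called by limma (0 higher, 0 lower, 0 at an unadjusted p under 0.05; over all genes 1.50% were called higher, 1.14% lower, and 22.9% had an unadjusted p under 0.05), and their median was -0.21. TCEAL1 read 3863 and 3841 on the siRNA arrays against 3296 on the scrambled array, and TCEAL3 read 1578 and 1824 against 2092. TCEAL2 did not pass the filter and read 44.5 and 116.4 against 258.

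The ARMCX and GPRASP genes, armadillo-repeat genes of the same region, had 7 of 9 past the filter and a median of -0.13. Limma called 0 of them, and 2 of 7 had an unadjusted p under 0.05, against 22.9% of all genes. ARMCX2 read 3059 and 4003 on the siRNA arrays against 1686 on the scrambled array (log2 difference 1.03 ± 0.26, SE; limma adjusted p = 0.0910). ARMCX5, next to BEX5 among the measured genes, read 2606 and 2648 against 3967 (adjusted p = 0.213), and ARMCX4 1225 and 1269 against 1790 (adjusted p = 0.327). The dimmer ARMCX5 probe set differed by -0.97 (limma adjusted p = 0.136).

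Relatives of the NAP1L genes lay near 0. Of SET and the TSPYL genes, which carry the same NAP domain, 4 of 6 passed the filter, with a median of -0.041, 0 called by limma and 0 at an unadjusted p under 0.05. SET itself read 23406 and 21539 on the siRNA arrays against 25702 on the scrambled array (log2 difference -0.19 ± 0.18, SE), and TSPYL2 1366 and 1410 against 1459. Of 27 other histone chaperone genes, 26 passed the filter, with a median of 0.14, 0 called by limma and 2 at an unadjusted p under 0.05, against 22.9% of all genes. These were CABIN1, a subunit of the HIRA complex (1746 and 2175 against 1023, adjusted p = 0.128), and ANP32B, an acidic histone-binding protein gene (23000 and 23276 against 36127, adjusted p = 0.0978). CHAF1A, the large subunit of chromatin assembly factor 1, read 1050 and 1350 against 793.5 (adjusted p = 0.339).

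The p75 neurotrophin receptor, the partner of BEX1 and BEX3, was dim. NGFR read 24.5 and 133.5 on the siRNA arrays against 222.2 on the scrambled array and did not pass the filter. Of 18 genes of p75 signalling, 11 passed, with a median of -0.012, 0 called higher and 2 called lower by limma, against 1.50% and 1.14% of all genes. BDNF, a neurotrophin, fell to 253.5 and 438.5 on the siRNA arrays, against 4089 on the scrambled array (log2 difference -3.44 ± 0.36, SE; adjusted p = 0.0178). IRAK1, a kinase that joins the receptor's signalling complex, fell to 9265 and 10690, against 20625 (log2 difference -1.05 ± 0.20, SE; adjusted p = 0.0493), but a dimmer IRAK1 probe set differed by -0.36 (adjusted p = 0.534) and the call is lost with quantile normalization (adjusted p = 0.0653), a pseudocount of 177.5 (0.0546), the filter at the 75th percentile (0.0702), no filter (0.173) or no trend (0.198). MAGED1, an adaptor also known as NRAGE that binds the receptor, read 10801 and 18221 against 4789 (log2 difference 1.54 ± 0.31, SE; adjusted p = 0.0557).

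Neuronal markers were mostly dim. Of 20 genes, 8 passed the filter and 4 read below the bacterial control level on all arrays, with a median of -0.48 over the 8, which was -0.64 on siRNA array 1 and -0.21 on siRNA array 2. Limma called 1 lower, against 1.14% of all genes: UCHL1, a neuronal ubiquitin hydrolase gene, which fell to 34.4 and 143.5 on the siRNA arrays, against 4222 on the scrambled array (adjusted p = 0.0169). The UCHL1 signal on siRNA array 1 lies below the bacterial control level of 97.2, so the size of its fall there is a bound. UCHL1 passed the filter only through its scrambled signal, so its test is not independent of the filter. The neurofilament gene NEFL read 272.5 and 370.1 against 896.8 (adjusted p = 0.0895), and the adhesion gene NRCAM 2259 and 2924 against 3854 (adjusted p = 0.268). Another NEFL probe set past the filter read 165.4 and 307.1 against 1120.7 (limma adjusted p = 0.0529). Markers such as STMN2, SYP and ELAVL3 did not pass the filter. The calls of BDNF and UCHL1 are lost without the filter or without the trend (adjusted p of 0.111 to 0.125).

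**Figure D4:**
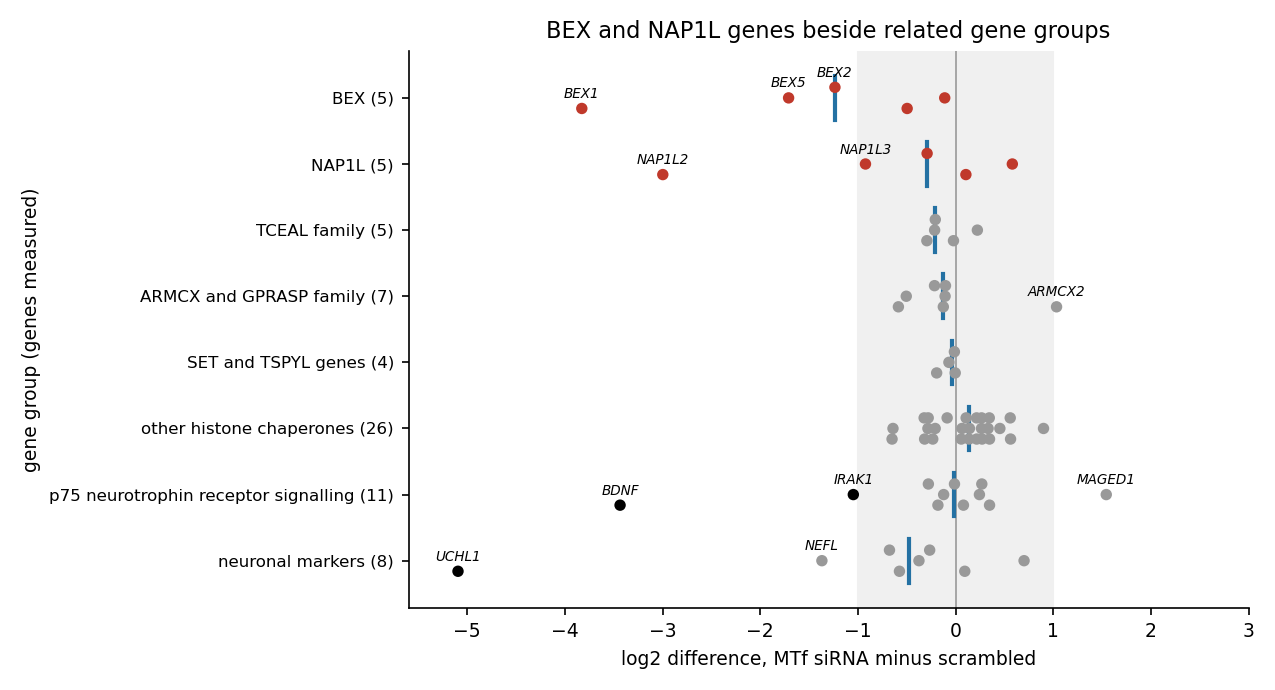
Log2 difference (mean of both siRNA arrays minus the scrambled array) of each measured gene in the BEX and NAP1L families (red) and in 6 related groups (black where called by limma, grey otherwise), with group medians as blue bars and numbers of genes in brackets. Red dots carry no test; BDNF, IRAK1 and UCHL1 are the black ones, and the grey band spans 2-fold.

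The genes closest in pattern were found by the distance between log2 values centred on each gene's mean over the 3 arrays. For BEX1 these were BAAT, a bile acid conjugating enzyme gene (distance 0.31), ALDH1L2, a mitochondrial folate enzyme gene (0.47), and BDNF (0.75), and 2 genes lay within 0.5. For NAP1L2 they were the kinase gene DYRK3 (0.29), the ubiquitin ligase gene HECW2 (0.33) and the growth factor gene FGF5 (0.36), and 6 genes lay within 0.5. A pattern over 3 arrays has few degrees of freedom, and the distance depends on the pseudocount where signals are dim, as for NAP1L2, BAAT and ALDH1L2.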

How the data were processed

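Total RNA was measured with a biotin label on 3 arrays, 1 per sample, grouped by the sample titles. The authors deposited 1 intensity per probe set and array on a linear scale, made with GCOS 1.3 per the submitters' processing notes. The sources used here name no other setting. The mean signal after trimming 2% at each end was 1000.1 on each array. Of 54675 probe sets, 62 controls were left out. Genes were named from the platform annotation where it gives 1 gene.

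Signals were analysed as log2(signal + 47.4), the pseudocount being the 25th percentile, which understates changes of dim probe sets. The 27306 probe sets whose mean log2 value exceeded 7.74 were fitted with limma 3.58.1 in R 4.3.3 (lmFit, eBayes with trend, Benjamini-Hochberg at 0.05, two-sided). The fit has 1 residual degree of freedom and a prior of 6.36, and the lone scrambled array is assumed to vary like the siRNA arrays. The number of arrays limits the precision. The filter takes the mean of all 3 arrays, so a gene can pass it through the group where it is high, as NAP1L2 and UCHL1 did. A gene is represented by its brightest probe set, and adjusted p-values run over all probe sets. The limma script was tested on simulated data.

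Members, related lists and tests were chosen with earlier results of these data known. Named genes were all members, MELTF, in each list the called genes and the 3 with the largest consistent difference, called or at least 2-fold changed neighbours, and the 3 genes closest in pattern to BEX1 and NAP1L2; MLANA, PMEL, SOX10, LCP1, CD79A, PTPRC, NGFR, TCEAL2, further neuronal markers and genes described by their position were named beside these. XIST was left out of the neighbours. Alternatives covered scaling, pseudocount, filter, trend, probe set averaging and leaving out a siRNA array. The gene order and promoters are those of RefSeq on GRCh38.p14, and deposited values carry no coordinates. There were 0 value columns of other samples.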

Additional observations from a re-analysis of the deposited data

How the results depend on the processing

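No paired analysis was possible because the groups share 1 replicate number and the scrambled group has 1 array. The count of member probe sets at least 2-fold lower on both siRNA arrays was 3 in the main setting, 3 with quantile normalization and with either other pseudocount (16 and 177.5), and 4 with arrays centred on their medians, where NAP1L3 joins; 0 were higher under any of these. Counted on a single siRNA array it was 4 without either. The median over the 10 members, -0.71, was -0.88 with arrays centred and lay between -0.67 and -0.52 with a siRNA array left out. Of the 10 genes, 9 kept their sign under all 6 alternatives run for them; NAP1L1 was 0.10 and became -0.065 with arrays centred. BEX1 ranged from -4.65 to -3.00 and BEX2 from -1.85 to -0.62, both set by which siRNA array is used, and NAP1L2 from -3.40 to -2.11, set by the pseudocount. Medians of the neighbours inside the BEX cluster moved to -0.38 and -0.29 with arrays centred and with quantile normalization, alternatives added after the data were seen.

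The limma calls over all probe sets, 324 higher and 247 lower, became 594 and 934 with arrays centred, 203 and 157 with quantile normalization, 339 and 245 with a pseudocount of 16, 204 and 202 with a pseudocount of 177.5, 1 and 0 without the filter, 6 and 3 with the filter at the 75th percentile, and 1 and 0 without the trend. By gene, the calls were 186 higher and 141 lower, and 323 and 509 with arrays centred. Among the related genes, 0 higher and 3 lower (BDNF, IRAK1 and UCHL1) became 1 and 6 with arrays centred (MAGED1 higher; ANP32B, NEFL and NPM1 also lower), 0 and 2 with quantile normalization or a pseudocount of 177.5 (IRAK1 lost), 1 and 3 with probe sets averaged (MAGED1 higher; BDNF, NEFL and UCHL1 lower), and 0 and 0 without the filter, with the filter at the 75th percentile, or without the trend. The cause of these shifts was not tested. Dim signals limit NAP1L2, UCHL1 and COL4A5 on siRNA array 1, SYTL4 on the scrambled array and the dim NAP1L4 probe sets. For these only bounds or no difference can be given.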

Other observations

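Of the 399 measured X-linked genes that are no members, 4 were at least 2-fold lower on both siRNA arrays and 16 at least 2-fold higher. Over all genes these shares were 1.94% lower and 4.19% higher. The 4 lower genes included MAGEA1, a cancer-testis antigen gene, and IL1RAPL1, a synaptic adhesion gene. The pairs of genes with similar start regions, BEX1 with BEX3 and BEX2 with BEX4, sit in opposite orientation on the chromosome, the first of each pair on the minus strand.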
